A study of Mus musculus with 24 samples.

Results

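Cytosolic ribosomal protein genes were followed across 24 Mouse430_2 expression arrays. The RNA came from thymocytes that carry both CD4 and CD8 (double-positive, DP), a stage before the mature T cell. Members were the genes with a symbol of the form Rpl or Rps and a number (with an optional a, x, y or l), together with Rplp0, Rplp1, Rplp2 and Rpsa, if the array held a probe set listed for that symbol alone. This gave 46 of the 18193 genes measured, 24 of the large and 22 of the small subunit, each read from its single-symbol probe set with the highest mean signal. A further 28 such symbols, among them Rpl5, Rpl23, Rpl26, Rpl10, Rpl3 and Rplp1, lay only on probe sets that also list other symbols and are not members.

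The tested genotypes were the combined knockout ElkSapKO, ElkKO and SapKO, set against wild type (WT), with 3 male Black 6J mice aged 8 weeks in each. Sap and Elk were read as Elk4 (SAP-1) and Elk1, ternary complex factors of the ETS family that bind DNA beside serum response factor. The labels describe each allele only by its genotype name, and no Cre line or promoter is given. Thymus cells sorted with anti-CD4 and anti-CD8 were rested for 2 hours and then spent 30 min on anti-CD3-coated plates, where the antibody triggers the antigen receptor, or on plates without a coat. Each mouse gave 1 array of each kind, so there were 8 groups of 3 arrays, and that number limits the precision.

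Ribosomal proteins are made in near-equal amounts and joined to ribosomal RNA in the nucleolus, and their messengers are among the most abundant in any growing cell. Most of these messengers begin with a run of pyrimidines that puts their translation under control of mTORC1 and Larp1, so their output can change while the RNA level stays the same. Several proteins have roles outside the ribosome: Rpl11, with Rpl5, binds Mdm2 and so stabilises p53, and mouse Rpl22 is needed for the development of alpha-beta T cells.

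Because Elk1 and Elk4 recognise the ETS core, the start regions of the genes were read for longer words that hold it. RefSeq promoter records of build GRCm38.p6, which run from 250 bases before to 50 bases after an annotated start, matched 40 of the 46 members. The word CCGGAAG, on either strand, was present in 20 of these 40 and in 9.93% of all 27025 genes with a record. The shorter word CGGAAG, which lies inside it, was present in 29 of 40 (72.5%) against 18.8% of all genes. A CArG box, the motif of serum response factor, was found in 1 of 40 (2.5%) against 1.81%. A pyrimidine tract of at least 8 bases that touched the 20 bases on either side of the start was found in 22 of 40 (55.0%) against 23.7%. These shares were not matched for base composition or for the number of records a gene has, and a match describes the letters of the window only.
The first sequences show the word CGGAAG close to the start in members described below. The windows run from 60 bases before to 20 bases after the start on the strand of the gene. Only CGGAAG and its reverse complement CTTCCG are in capitals. Rpl37 and Rps18 lie at chr15:5116553-5116632 (plus strand) and chr17:33955646-33955725 (minus strand), Rpl38 at chr11:114668520-114668599 (plus strand), Rps6 at chr4:86857348-86857427 (minus strand) and Rpl11 at chr4:136053374-136053453 (minus strand).
Rpl37: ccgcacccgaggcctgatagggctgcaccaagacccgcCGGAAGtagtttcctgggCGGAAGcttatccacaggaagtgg
Rps18: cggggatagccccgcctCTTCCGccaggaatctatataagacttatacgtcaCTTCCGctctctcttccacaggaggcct
Rpl38: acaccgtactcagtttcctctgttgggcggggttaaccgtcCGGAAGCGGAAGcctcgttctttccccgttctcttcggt
Rps6: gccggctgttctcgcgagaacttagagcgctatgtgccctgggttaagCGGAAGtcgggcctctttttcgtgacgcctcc
Rpl11: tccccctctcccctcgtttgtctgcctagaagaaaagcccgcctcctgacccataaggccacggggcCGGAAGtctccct
Of the 5 windows, those of Rpl37, Rps18 and Rpl38 hold CGGAAG or CTTCCG 2 times each.

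The pyrimidine tract is shown for 3 members in windows of 25 bases on either side of the annotated start, with the tract in capitals. Rpl27a lies at chr7:109519170-109519219 (plus strand), Rpl13a at chr7:45128721-45128770 (minus strand) and Rps6 at chr4:86857343-86857392 (minus strand).
Rpl27a: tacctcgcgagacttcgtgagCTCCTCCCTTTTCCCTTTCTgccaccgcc
Rpl13a: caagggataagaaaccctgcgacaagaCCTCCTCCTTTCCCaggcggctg
Rps6: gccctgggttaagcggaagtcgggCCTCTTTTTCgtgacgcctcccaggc
The tracts of Rpl27a (20 bases) and Rps6 (10 bases) span the annotated start, and that of Rpl13a (14 bases) begins at base 3 after it. The count of 22 also takes in tracts that end before the start, such as the one of Rps25, which begins at position -22 and is 14 bases long.

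Before the results, the arrays themselves differ in ways that touch them. Elk4 had 7.44 to 7.82 log2 in stimulated ElkSapKO arrays and 7.44 to 7.59 log2 in stimulated SapKO arrays, against 10.25 to 10.82 log2 in stimulated WT arrays. Elk1 stood at 4.03 to 4.69 log2 in untreated ElkKO arrays, against 4.70 to 5.23 log2 in untreated WT arrays, close to the level of a silent gene in these arrays, so its probe set says little on the ElkKO label. Of 8 DP thymocyte markers on the array, Cd4, Cd8a, Cd8b1, Rag1 and Dntt had at least 10.45 log2 in each array. The others were lower: Cd3e had 10.06 to 11.58 log2, Rag2 9.12 to 10.08 log2 and Ptcra 5.74 to 6.90 log2. In stimulated ElkSapKO against WT, Cd3e fell by 0.94 log2 and Cd4 fell by 0.90 log2 (adjusted p = 0.0125 and 0.0128, limma). Of 7 macrophage and dendritic cell markers 5 or 6 were near background in each group, and their summed level was 7.71 to 7.84 log2 in stimulated ElkSapKO arrays, against 7.69 to 7.77 log2 in stimulated WT arrays. Of 4 markers of mature single-positive T cells, 3 fell in untreated ElkSapKO against WT (Ccr7, Il7r and S1pr1; list median -1.31 log2) and 1 in stimulated ElkSapKO (Ccr7; median -0.88 log2, 4 of 4 lower). Their summed level was 8.82 to 9.20 log2 in untreated ElkSapKO, against 9.93 to 10.64 log2 in untreated WT, and 8.37 to 9.06 log2 in stimulated ElkSapKO, against 9.62 to 10.23 log2 in stimulated WT. Of 6 B cell markers 6 were higher in untreated SapKO than in WT (median 0.54 log2, 0 called by limma, 3 with an unadjusted p under 0.05), with summed levels of 11.80 to 12.18 log2, against 11.73 to 11.87 log2. The part of these cell types in the results below was not tested. The Actb 3' minus 5' signal, a measure of RNA integrity, was 0.55 to 1.05 log2 in ElkSapKO, 0.38 to 0.65 in ElkKO, 0.17 to 0.24 in SapKO and 0.15 to 0.36 in WT. The untreated array of ElkSapKO mouse 2 had by far the most scattered genes: its deviations from the median array had an interquartile range of 0.826 log2, where the remaining arrays had 0.179 to 0.363 log2. The dap spike-in, added during labelling, was 5.92 to 6.63 log2 in 8 arrays (SapKO mice 1 and 3, WT mice 1 and 2) and 8.83 to 9.78 log2 in the other 16. In bulk samples fewer cells of a type and less RNA per cell cannot be told apart, and quantile normalisation makes each level relative to the rest of its array.

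The members fell into 3 ranges of signal. A mean of 12.4 to 13.7 log2 was measured for 33 members, 17 large and 16 small, and these are called bright. Another 9 (Rpl12, Rpl14, Rpl27a, Rpl37, Rpl39, Rps25, Rps27, Rps27l and Rps6) had means of 6.40 to 10.3 log2. The last 4 (Rpl39l, Rpl3l, Rps4l and Rps16) had means of 3.17 to 4.97 log2, in the range of Xist, a gene not used in male cells, which reached 5.07 log2. Of these, Rpl39l, Rpl3l and Rps4l are paralogs of core proteins, while Rps16 is itself a core protein of the small subunit. Whether the probe sets of Rps16 and of the 9 members with middling signal read the main messenger of their gene was not tested. The highest signal of any probe set was 13.9 to 14.1 log2 per array, so bright members lay near the top of the scale, where differences are compressed by an amount that was not tested.

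Bright members varied little. Their residual SD within groups was 0.036 to 0.170 log2 with a median of 0.065 log2, against a median of 0.134 log2 for the 84 other genes of the same brightness and 0.211 log2 for all genes. The steadiest were Rps29 and Rpl7a, of the small and the large subunit, with a residual SD of 0.036 log2 each, and Rps4x, Rpl38 and Rps28 followed at 0.043 to 0.050 log2. Rps29 stayed between 13.57 and 13.70 log2 in all 24 arrays. Among bright members Rps18, at the head of the small subunit, was the most variable, with 0.170 log2. Over all members Rpl27a had the widest spread, with a residual SD of 0.782 log2, followed by Rpl12 (0.339), Rps4l (0.302), Rpl39l (0.266) and Rpl14 (0.260), all of them outside the bright range.

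**Figure D1:**
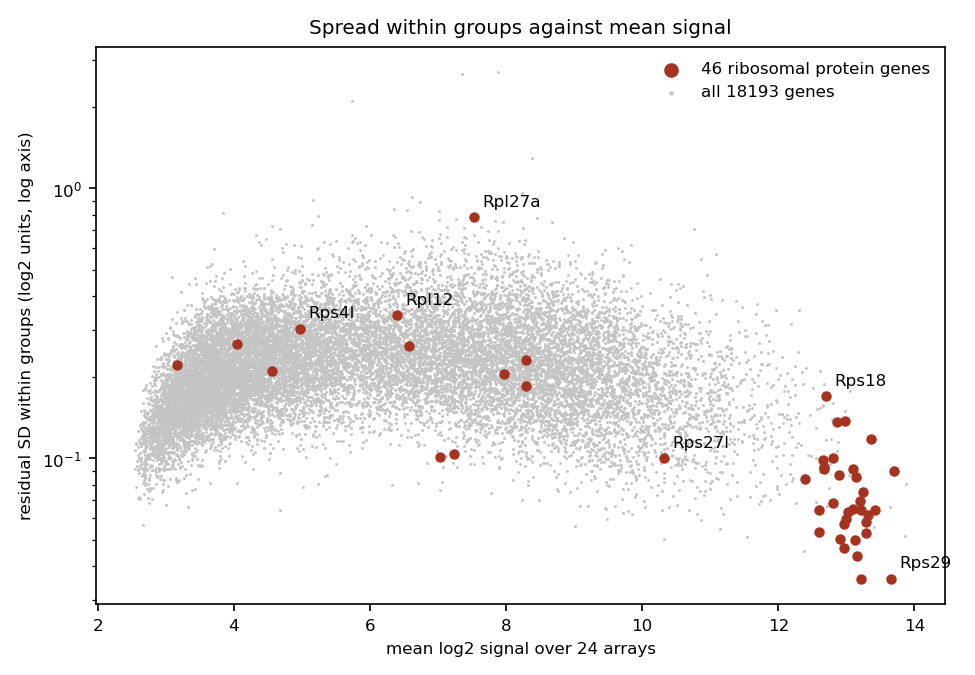
Residual SD within the 8 groups (log2 units, log axis) against mean log2 signal over 24 arrays for the 46 ribosomal protein genes (red) and all 18193 genes (grey). The bright members gather at the lower right, at a median of 0.065 log2, and Rpl27a stands highest among members at 0.782 log2.

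The level of the set relative to the rest of its array was almost constant. Quantile normalisation gives the top of each array the same values, and the 33 bright members are among only 117 genes with a mean of at least 12 log2. The near-constant level therefore cannot show that the amount of RNA was constant, and the part of the normalisation in it was not tested. Taking each bright member against its own mean over the 24 arrays, the median of the 33 lay between -0.05 and 0.07 log2 in every array. The same median over the 84 other bright genes lay between -0.14 and 0.08 log2. In the untreated ElkKO array of mouse 1, 32 of 33 bright members were above their own mean, and in SapKO arrays 7 to 14 of 33 were. Over the 24 arrays the first principal component held 40.6% and the second 22.0% of their variance over arrays, and 66.9% of the 528 pairs of genes had a positive correlation over the 24 arrays, with a median r of 0.15. These arrays share groups and depth of signal, so the correlations are a description.

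**Figure D2:**
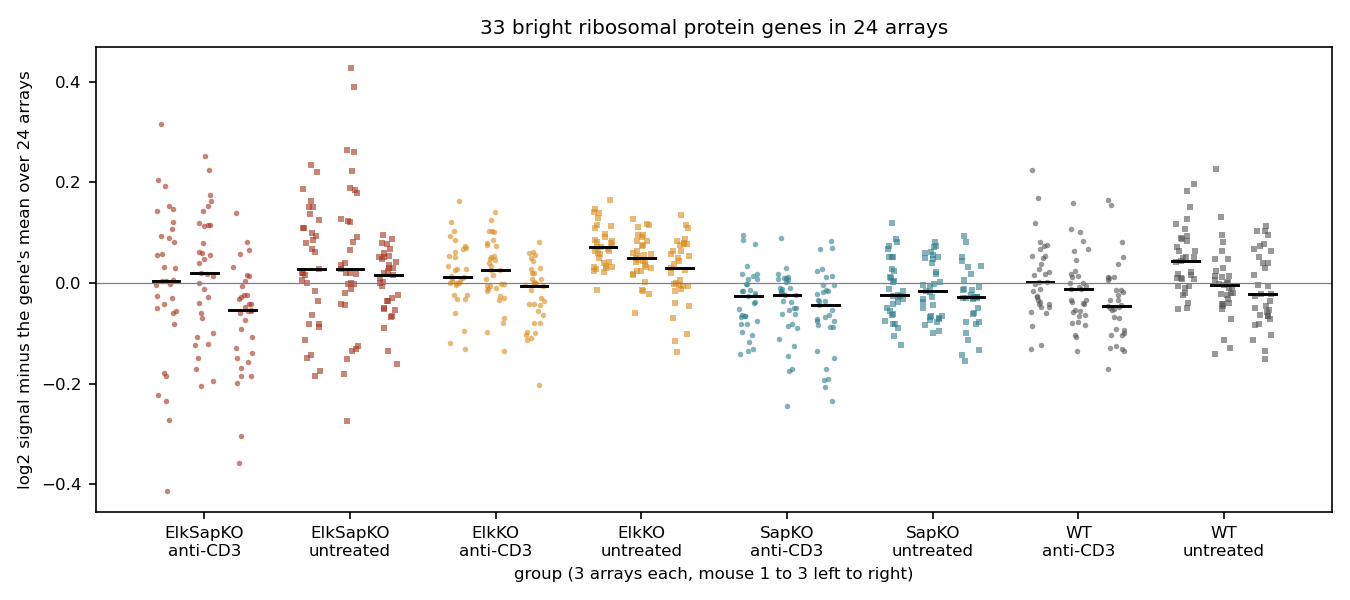
Log2 signal minus the gene's own mean over 24 arrays for 33 bright ribosomal protein genes (points) in each array, with the median as a bar; arrays are grouped by genotype and treatment, and circles are anti-CD3 and squares untreated. The medians lie between -0.05 and 0.07 log2.

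The first question was whether 30 min of T cell receptor engagement changed the messengers. Egr1, an immediate early gene, was higher by 6.80 log2 in stimulated than in untreated WT arrays (adjusted p = 3.21e-13, limma). Of the 46 ribosomal protein genes 0 were called in WT (limma, adjusted p under 0.05), where 0.352% of all genes were. The numbers were 0 in SapKO (all genes 0.363%), 0 in ElkKO (0.203%) and 0 in ElkSapKO (0.346%). At an unadjusted p under 0.05 there were 0 members in WT (all genes 4.23%), 0 in SapKO (2.23%), 1 in ElkKO (Rpl37; 2.56%) and 2 in ElkSapKO (Rps25 and Rps18; 7.92%). Averaged over the 4 genotypes, again 0 members were called, against 1.45% of all genes, and 1 had an unadjusted p under 0.05 (all genes 6.93%).

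The sizes were small. The 33 bright members changed by -0.13 to 0.02 log2 in the mean over genotypes, and their 95% intervals ended no further out than -0.28 and 0.13 log2. Of the 33, 30 were lower after anti-CD3 and 3 higher, with a median of -0.03 log2, against 53 lower of the 84 other bright genes (median -0.02 log2) and a median of 0.01 log2 for all genes. In each of the 12 mice the median change of the bright members was below 0, between -0.08 and -3.8e-05 log2. The same median over the other bright genes was below 0 in 10 of 12 mice. The median was -0.03 log2 over the 17 bright large subunit genes, 16 of them lower, and -0.05 log2 over the 16 bright small subunit genes, 14 of them lower. Arrays were also compared for overlap. ElkKO had 9 members with all 3 stimulated arrays below all 3 untreated ones (19.6%, against 4.56% of all genes) and 1 above (6.39%). ElkSapKO had 3 below (all genes 1.67%) and 0 above (3.11%), SapKO had 3 below (all genes 6.3%) and 0 above (6.24%), and WT had 1 below (all genes 4.64%) and 2 above (6.47%).

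A few genes went the same way in each mouse. Rps25, a small subunit protein used in translation from some internal entry sites, had higher signal after anti-CD3 in 12 of 12 mice, as did 1.08% of all genes. Its levels were 8.57, 8.39 and 8.03 log2 in stimulated ElkSapKO cells, against 8.27, 7.42 and 7.93 log2 in the untreated cells of the same mice. In WT they were 7.87, 7.98 and 8.13 log2 with anti-CD3, against 7.85, 7.86 and 7.90 log2 without it. The groups overlapped in both genotypes, and the widest step was in ElkSapKO mouse 2, whose untreated array is the scattered one. The mean change over genotypes was 0.21 ± 0.083 log2 (limma SE; adjusted p = 0.465, and adjusted p = 0.227 with mouse as a fixed block).

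Rps4x, the X-linked small subunit protein, was lower in 12 of 12 mice, as were 0.561% of all genes. It had 13.16, 13.08 and 13.12 log2 in stimulated WT cells, against 13.20, 13.15 and 13.23 log2 in untreated ones. In ElkSapKO it had 13.13, 13.16 and 13.01 log2 with anti-CD3, against 13.22, 13.16 and 13.20 log2 without it, and the change in mouse 2 was -3.8e-05 log2. The mean change was -0.07 log2 (adjusted p = 0.915, limma). Rpl12, a large subunit protein at the base of the stalk, was lower in 11 of 12 mice, as was Rps15, and Rpl3l was higher in 11. Of all genes 3.25% were lower and 2.69% higher in at least 11 of the 12. Rpl12 had a mean change of -0.26 ± 0.127 log2 (adjusted p = 0.747, limma).

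Among members with a known signalling link the values lay close to 0. Rpl11 had 12.97, 13.01 and 12.95 log2 in stimulated WT cells, against 13.04, 13.00 and 13.09 log2 in untreated ones, a change of -0.07 log2 in WT and -0.05 log2 over all genotypes (adjusted p near 1 in both, limma). Rps6, the substrate of S6 kinases, had 8.23, 8.26 and 8.43 log2 in stimulated WT cells, against 8.33, 8.22 and 8.42 log2 in untreated ones, and a mean change of 0.0045 log2. Rpl22 had 12.78, 12.66 and 12.59 log2 with anti-CD3 in WT, against 12.79, 12.68 and 12.51 log2 without it, and a mean change of -0.08 log2. For all 3 genes the stimulated and untreated WT groups overlapped. In ElkKO all 3 stimulated arrays lay below all 3 untreated ones for Rpl11 and Rpl22, and in SapKO for Rpl11. The other Rpl22 probe sets, at means of 11.47 and 7.63 log2, changed by -0.14 and -0.19 log2 on average. Neither was called (adjusted p = 0.805 and 0.526, limma fit of all probe sets). Rpl22l1, the paralog whose RNA is repressed by Rpl22 in mouse and which the symbol rule leaves out, changed by -0.14 log2 on average (adjusted p = 0.971, limma).

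Other members with roles of their own also changed little on average, though Rpsa varied within groups (residual SD 0.138 log2). The mean change over genotypes was -0.07 log2 for Rps19, mutated in Diamond-Blackfan anaemia, -0.04 and -0.05 log2 for the stalk proteins Rplp0 and Rplp2, and -0.05 log2 for Rpl13a, which has a role in translational silencing in human myeloid cells. It was -0.0031 log2 for Rpl38, which in mouse embryos affects translation of Hox messengers, and -0.05 log2 for Rpsa, related to the laminin receptor. For Rps3, which also takes part in DNA repair, it was -0.0054 log2, and for Rps2 it was -0.01 log2. None of these had an unadjusted p under 0.05.

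**Figure D3:**
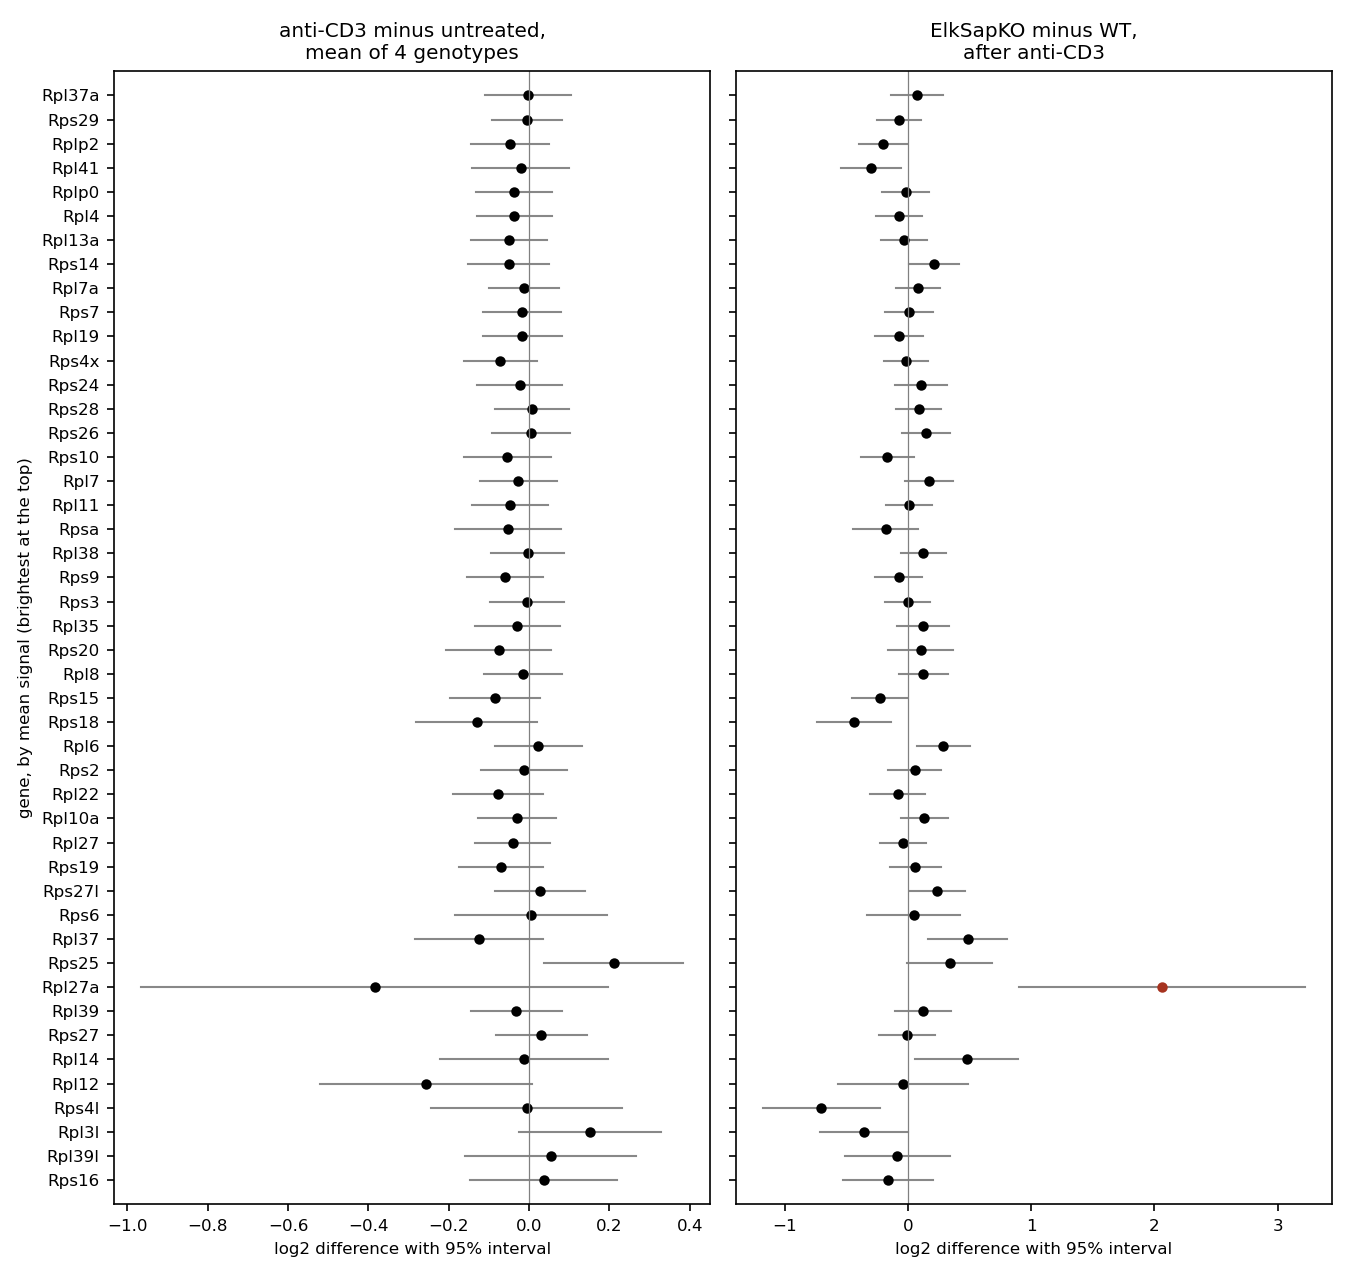
Log2 differences with 95% intervals (limma) for the 46 ribosomal protein genes, brightest at the top, for anti-CD3 minus untreated averaged over 4 genotypes (left) and for ElkSapKO minus WT after anti-CD3 (right); the called gene is red. On the left the bright members lie between -0.13 and 0.02 log2, and on the right Rpl27a is called at 2.06 log2.

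The second question was what the loss of the ternary complex factors did to these messengers. In untreated cells 0 of 46 members were called in ElkSapKO against WT (all genes 3.44%), 0 in ElkKO (all genes 0.0989%) and 0 in SapKO (all genes 0.0824%). At an unadjusted p under 0.05 there were 2 members in ElkSapKO (all genes 23.4%), 2 in ElkKO (7.21%) and 0 in SapKO (1.65%). After anti-CD3, 1 member was called in ElkSapKO (all genes 6.83%, of which 1.4% higher and 5.43% lower), 0 in ElkKO (all genes 0.22%) and 0 in SapKO (all genes 0.0715%). At an unadjusted p under 0.05 there were 12 members in ElkSapKO (all genes 21.5%), 1 in ElkKO (11.4%) and 0 in SapKO (2.97%). In stimulated ElkSapKO the 12 split into 6 higher and 6 lower, and of all genes 1382 were higher and 2537 lower at that level.

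The one call was Rpl27a, a large subunit protein, on a probe set with a mean of 7.53 log2, where bright members had means of 12.4 to 13.7 log2. Whether this probe set reads the main Rpl27a messenger was not tested. Rpl27a had 9.34, 8.49 and 7.34 log2 in stimulated ElkSapKO cells of mice 1 to 3, against 5.99, 5.92 and 7.08 log2 in stimulated WT cells. The groups did not overlap, though mouse 3 of each genotype lay close to the other. The difference was 2.06 ± 0.559 log2, or 4.17-fold (adjusted p = 0.0298, limma). In untreated cells the values were 8.80, 10.35 and 6.99 log2 in ElkSapKO, against 6.91, 7.46 and 7.67 log2 in WT, where the groups overlapped and the difference was 1.37 ± 0.559 log2 (adjusted p = 0.151). The highest of these values came from the scattered array of ElkSapKO mouse 2. Leaving out each array in turn gave untreated differences of 0.55 to 2.23 log2 (adjusted p of 0.00399 to 0.622, limma). ElkKO had 7.40, 7.46 and 7.40 log2 with anti-CD3 and SapKO had 6.95, 7.74 and 6.91 log2.

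The Rpl27a call rested on few arrays. Without stimulated WT mouse 1 or 2, or without stimulated ElkSapKO mouse 1 or 2, it was lost, and leaving out each array in turn gave differences of 1.58 to 2.58 log2 with adjusted p of 0.00363 to 0.208. It was also lost with the dap level as a term (1.53 log2, adjusted p = 0.193) and with the Actb 3' minus 5' signal as a covariate (0.96 log2, adjusted p = 0.795). The Actb signal was 0.55 to 1.05 log2 in ElkSapKO and 0.15 to 0.36 log2 in WT, without overlap. The Actb fit therefore cannot tell RNA integrity from genotype, and 0 of 18193 genes were called for its term itself. All ElkSapKO arrays had high dap signal, so the dap fit can separate labelling from genotype only weakly. The second Rpl27a probe set, at a mean of 3.44 log2, differed by 0.23 log2 (adjusted p = 0.295 in a fit of all probe sets). WT mice 1 and 2, with the lowest Rpl27a in stimulated cells, are also the WT mice with low dap signal. The part of labelling and RNA integrity was not tested.

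Next to Rpl27a, Rpl37 of the large subunit was higher in both states of ElkSapKO without being called. It had 8.61, 8.65 and 8.33 log2 in stimulated ElkSapKO cells, against 7.92, 8.19 and 8.03 log2 in stimulated WT cells, with no overlap (0.48 ± 0.154 log2, adjusted p = 0.0631, limma). In untreated cells it had 8.64, 8.96 and 8.26 log2 in ElkSapKO, against 8.32, 8.00 and 8.13 log2 in WT, with overlap and a difference of 0.47 log2 (adjusted p = 0.089). The highest of these values came from the scattered array of ElkSapKO mouse 2. Leaving out each array in turn gave untreated differences of 0.30 to 0.65 log2 (adjusted p of 0.00622 to 0.295, limma). Untreated ElkKO cells, at 8.46, 8.54 and 8.45 log2, also stood above all WT arrays (0.33 log2, adjusted p = 0.682). With each array centred on the median of all genes, and with dim genes left out, the stimulated ElkSapKO difference was called (adjusted p = 0.0379 and 0.0368, limma). With the Actb 3' minus 5' signal as a covariate it was 0.12 log2 (adjusted p = 0.913). That fit cannot tell RNA integrity from genotype, since the signal did not overlap between ElkSapKO and WT.

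Rps18 had the widest difference of any bright member. It had 12.29, 12.51 and 12.34 log2 in stimulated ElkSapKO cells, against 12.93, 12.86 and 12.67 log2 in stimulated WT cells. All 3 ElkSapKO arrays lay below all WT arrays, and the difference was -0.44 ± 0.145 log2 (adjusted p = 0.0729, limma). In untreated cells, at 12.52, 13.13 and 12.61 log2 in ElkSapKO against 12.90, 12.93 and 12.65 log2 in WT, the groups overlapped. Median centring and leaving out dim genes gave a called difference in stimulated cells (adjusted p = 0.0474 and 0.042). Of the other Rps18 probe sets, the one nearest in signal differed by -0.49 log2 (adjusted p = 0.0519), the third bright one by 0.11 log2 (adjusted p = 0.7), and the 3 dim ones by -0.21 to 0.05 log2. Within WT and SapKO, where both dap levels occur, Rps18 was 12.53 to 12.67 log2 in the 4 high-dap arrays and 12.67 to 12.93 log2 in the 8 low-dap ones. Of the 46 members 7 lay wholly lower in the high-dap arrays of these genotypes (Rpl22, Rpl27, Rplp2, Rps10, Rps18, Rps20 and Rps24) and 1 wholly higher (Rpl14). The share of all genes that lay apart in this way was not counted, so whether these counts are unusual is not known. With the dap level as a term 0 of 18193 genes were called for that term itself.

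Other bright members stood apart in stimulated ElkSapKO cells without being called. Rpl6, a large subunit protein, had 12.98, 12.84 and 12.75 log2 in ElkSapKO, against 12.54, 12.61 and 12.57 log2 in WT (0.29 ± 0.104 log2, adjusted p = 0.103, limma). Rpl41, the smallest ribosomal protein, had 13.09, 13.16 and 13.23 log2 in ElkSapKO, against 13.53, 13.47 and 13.38 log2 in WT (-0.30 ± 0.116 log2, adjusted p = 0.128, limma). In each case the groups were apart. Rpl38 was also apart in both states, with 13.11, 13.08 and 12.97 log2 in stimulated ElkSapKO cells, against 12.92, 12.95 and 12.92 log2 in stimulated WT cells, but by only 0.12 log2 (adjusted p = 0.459).

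Counting members whose 3 arrays all lay beyond the 3 of the other group gave the following shares. In stimulated ElkSapKO cells 8 members lay above all WT arrays and 8 below them (17.4% each), against 10.9% and 13.9% of all genes. In stimulated ElkKO cells 8 lay above (17.4%, against 7.41%) and 2 below (4.35%, against 11.6%). In untreated ElkKO cells 10 lay above (21.7%, against 7.23%) and 2 below (4.35%, against 11.1%). There 36 of 46 members were higher than in WT, with a median of 0.06 log2. The bright members had 27 of 33 higher (median 0.05 log2), and the other bright genes 53 of 84 (median 0.03 log2). Of all 18193 genes 8308 were higher (median -0.02 log2). In untreated ElkSapKO cells 2 lay above (against 6.4%) and 0 below (against 9.4%). In SapKO 1 lay above (against 4.05%) and 2 below (against 5.08%) in untreated cells, and 0 above (against 4.47%) and 2 below (against 6.3%) in stimulated ones. These counts share arrays within a genotype, and members on an array move together in part, so the shares are a description. In SapKO 39 of 46 members were lower than WT in untreated cells, by a median of -0.03 log2, and 30 of 46 in stimulated cells, by -0.03 log2. Of all genes 9936 were lower in untreated SapKO cells (median -0.01 log2) and 10521 in stimulated ones (median -0.03 log2, as for the members).

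The median difference of the bright members between ElkSapKO and WT was 0.0041 log2 in untreated and 0.0054 log2 in stimulated cells, while that of the 84 other bright genes was -0.09 and -0.04 log2. Over single genes the 95% intervals of bright members ended no further out than -0.74 and 0.50 log2 after stimulation and -0.37 and 0.37 log2 in untreated cells. For ElkKO these limits were -0.43 to 0.33 log2 with anti-CD3 and -0.37 to 0.39 log2 without it. For SapKO they were -0.46 to 0.26 log2 with anti-CD3 and -0.39 to 0.25 log2 without it. In stimulated ElkSapKO cells the median was 0.0079 log2 over the bright large and 0.0005 log2 over the bright small subunit genes.

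Members with the 7-base ETS word near their start were set beside those without it. In stimulated ElkSapKO cells the 20 with the word had a median difference from WT of 0.05 log2, with 13 higher and 7 lower, and the 20 without it one of -0.02 log2, with 7 higher and 13 lower. In untreated ElkSapKO cells the medians were 0.07 and 0.0031 log2, with 12 higher and 8 lower in both sets. In stimulated ElkKO cells they were 0.01 and 0.03 log2, and in stimulated SapKO cells -0.04 and -0.03 log2. The 20 with the word include Rpl27a, Rpl37 and Rps18, whose differences have opposite signs. The difference between the sets was not tested.

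The third question was whether the response to anti-CD3 depended on genotype. For the difference between the response in ElkSapKO, ElkKO or SapKO and that in WT, 0 members were called by limma in each case, where 0% of all genes were, and 0 had an unadjusted p under 0.05 (all genes 5.4% for ElkSapKO, 0.907% for ElkKO and 0.786% for SapKO). The smallest p belonged to Rps18, whose change was -0.37 log2 in ElkSapKO and -0.0065 log2 in WT (difference -0.37 ± 0.205 log2, adjusted p = 0.703). In ElkKO and SapKO it belonged to Rpl27a, with differences of 0.90 and 0.93 log2 (SE 0.791 log2, adjusted p near 1), since Rpl27a was 1.02 log2 lower in stimulated than in untreated WT cells (adjusted p near 1).

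**Figure D4:**
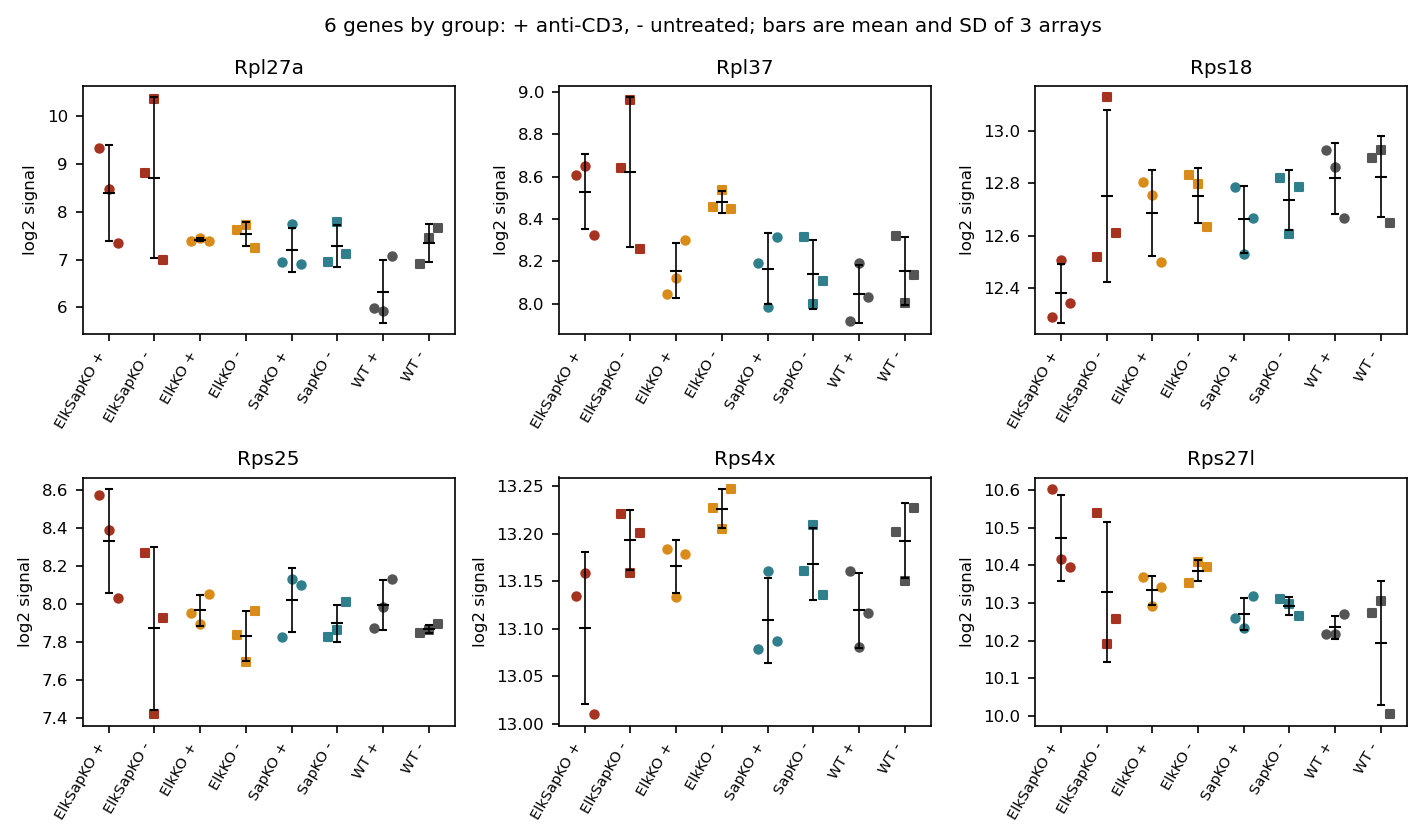
Log2 signal of Rpl27a, Rpl37, Rps18, Rps25, Rps4x and Rps27l in each array by group (points; circles anti-CD3, squares untreated), with mean and SD of 3 arrays as bars; each panel has its own axis. Rpl27a and Rpl37 have their highest means in ElkSapKO, Rps27l has its highest and Rps18 its lowest mean in stimulated ElkSapKO, and the untreated ElkSapKO array of mouse 2 is the highest point for Rpl27a, Rpl37 and Rps18 and the lowest for Rps25.

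Among the members, paralogs of the core proteins gave little signal apart from Rps27l. Rps27l, which p53 induces in human and mouse cells, had 10.60, 10.42 and 10.40 log2 in stimulated ElkSapKO cells, against 10.22, 10.22 and 10.27 log2 in stimulated WT cells. The groups were apart, by 0.24 ± 0.108 log2 (adjusted p = 0.202, limma), and its other probe sets differed by 0.26 and 0.27 log2. Its sister gene Rps27 differed by -0.0085 log2 and had 6.92, 7.02 and 7.15 log2 in stimulated ElkSapKO cells, against 7.03, 7.18 and 6.91 log2 in WT. Rps4l, a paralog of Rps4x, had 4.53, 4.53 and 4.67 log2 in stimulated ElkSapKO cells, against 5.30, 5.50 and 5.05 log2 in WT (-0.70 log2, adjusted p = 0.0677), all near background. Rpl3l, the muscle form of Rpl3, was at 4.27, 4.15 and 4.12 log2 in untreated ElkKO cells, against 4.71, 4.79 and 4.73 log2 in untreated WT cells (-0.56 log2, adjusted p = 0.266). Rpl39l, a testis form, and Rpl39 differed in stimulated ElkSapKO cells by -0.09 and 0.12 log2.

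Probe sets shared with other symbols were looked at as a set, since they hold the 28 symbols left out. In a fit of all 45037 probe sets, 110 listed a ribosomal protein symbol with others, and 68 of them were bright. Their bright medians lay between -0.05 and 0.05 log2 in each comparison. In stimulated ElkSapKO cells 9 of 110 were called higher and 1 lower than in WT. Of all probe sets 6.36% were called, in either direction. In the fit of genes 1.4% of all genes were called higher and 5.43% lower, so most calls there went the other way. The difference of the shared probe sets from these shares was not tested. In the mean response 1 was called higher (all probe sets 1.45%), and in untreated ElkSapKO cells 1 lower (all probe sets 5.34%). No single gene can be named from these. Of the 100 single-symbol probe sets 2 were called in stimulated ElkSapKO cells, the Rpl27a one and a dim one of Rps10, a small subunit protein (-0.88 log2 at a mean of 5.93 log2, adjusted p = 0.00436), while the 5 other Rps10 probe sets differed by -0.36 to -0.17 log2 and were not called.

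Lists of genes that work with the ribosome were read in the same fit. Of 21 mTORC1 and S6 kinase pathway genes, 5 fell in stimulated ElkSapKO cells against WT and 0 rose: Akt1s1, the mTORC1 inhibitor PRAS40, by 1.28 log2 (adjusted p = 0.00295), Rps6kb2, an S6 kinase, by 1.04 log2 (0.0101), Eif4ebp2, a brake on cap-dependent translation, by 0.99 log2 (0.0156), and Rraga, a GTPase that brings mTORC1 to the lysosome, by 1.16 log2 (0.04), all with limma. The fifth was Larp1, the repressor that binds the pyrimidine tract, which fell by 0.52 log2 (adjusted p = 0.0318). The list's median was -0.19 log2, against -0.0049 log2 for all genes, and 5.43% of all genes fell. In untreated ElkSapKO cells 3 of the 21 fell (Akt1s1, Rps6kb2 and Rraga) and 0 rose, with a median of -0.27 log2, where 2.69% of all genes fell. RNA integrity, Cd3e, Cd4 and the mature T cell markers (medians -1.31 log2 untreated and -0.88 log2 stimulated) moved with ElkSapKO, and their part in these values was not tested.

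Messengers of many translation factors carry the same pyrimidine tract. In stimulated ElkSapKO cells 1 of 19 fell, Eef2, the translocation factor, by 0.57 log2 (adjusted p = 0.0296, limma), and 0 rose, where 5.43% of all genes fell, so the list's count is near the background. Eef2 was 11.66 to 12.14 log2 in these arrays, against 12.39 to 12.57 log2 in stimulated WT arrays, without overlap. After anti-CD3 17 of the 19 were lower in the mean over genotypes, 0 of them called, with a median of -0.07 log2, against -0.03 log2 for the 46 ribosomal protein genes. Of 42 ribosome biogenesis factors 1 fell in stimulated ElkSapKO cells, Bop1, which processes ribosomal RNA of the large subunit, by 0.83 log2 (adjusted p = 0.0289, limma), and 0 rose, against the same 5.43% of all genes. The list's median was -0.06 log2.

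In the p53 and Mdm2 list, joined to ribosomal proteins through Rpl11, 1 of 12 genes fell in stimulated ElkSapKO cells, the cell death gene Bbc3, by 0.94 log2 (adjusted p = 0.00421, limma), and 0 rose, beside 5.43% of all genes that fell. In the mean response to anti-CD3, 1 of the 12 rose (all genes 1.02%): Pmaip1, another cell death gene, by 0.94 log2 (adjusted p = 0.000241, limma). Of the 21 mTORC1 pathway genes 1 fell (all genes 0.434%), the inhibitor Ddit4, by 0.80 log2 (adjusted p = 0.00073, limma). Of 4 ribosomal protein-like genes on the array that the symbol rule leaves out, 0 were called in either comparison, and Rps3a1 was 13.26 to 13.53 log2 in all 24 arrays.

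**Figure D5:**
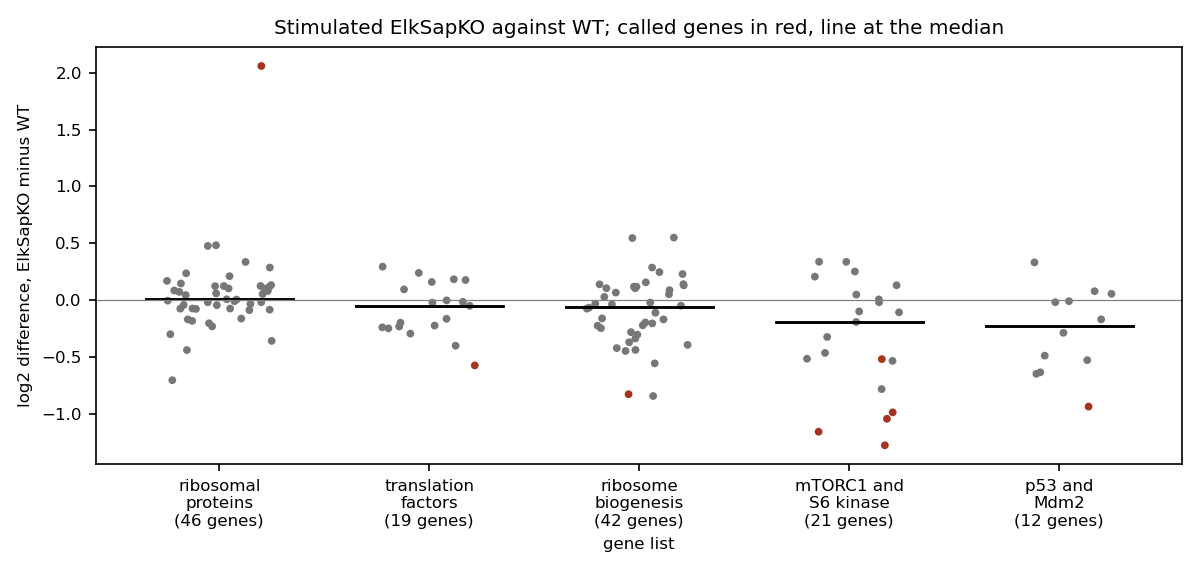
Log2 difference of stimulated ElkSapKO minus stimulated WT for each gene (points) of 5 lists, with called genes in red (limma, adjusted p under 0.05) and the list's median as a line. The medians are 0.0066 log2 for the ribosomal proteins and -0.19 log2 for the mTORC1 and S6 kinase pathway, where 5 of 21 genes fell.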

How the data were processed

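The values were the submitters' deposited log2 signals of 45101 Mouse430_2 probe sets, made by RMA with the affy package per the submitters' processing notes; the package version was not given in the sources used here. RMA corrects background, quantile normalises arrays and summarises probes. Tests left out 64 control probe sets, 0 value columns belonged to no sample, and probe sets that list several symbols name no gene. Differences were fitted with limma 3.58.1 in R 4.3.3 (8 group means, 24 arrays, 16 residual degrees of freedom), with Benjamini-Hochberg adjustment over 18193 genes in each of 14 contrasts; a gene is called, rose or fell at an adjusted p under 0.05. Errors are limma standard errors. On simulated data of this design the fit was tested. Figures used matplotlib 3.10.9 in Python 3.11.15.

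The members and the gene lists were chosen with earlier results of these data known. Genes named were chosen by role, as paralog pairs, by the smallest p per contrast and by residual SD; Rpl6, Rpl41, Rps4x, Rps15, the members listed by dap level and the dim Rps10 probe set were named after their values were seen. Mouse numbers in the labels pair the arrays of an animal; the deviations from group means of 8361 genes had r of -0.035 to 0.851 between the arrays of a mouse. Promoters are RefSeq's (GRCm38.p6).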

Additional observations from a re-analysis of the deposited data

How the results depend on the processing

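The 46 ribosomal protein genes gave 0 calls in 13 of 14 contrasts and 1 in stimulated ElkSapKO against WT. That 1 became 2 with probe sets averaged, 3 with median centring, 3 with genes under 6 log2 left out, 9 with array weights, 0 with the dap level as a term and 0 with the Actb covariate. In fits chosen after seeing the data it became 2 of 100 single-symbol probe sets with all probe sets as features, and 3 with a prior variance that follows the mean signal, where Rpl6 and Rps18 joined Rpl27a. Restricted to the 6 arrays compared, the count was 1 but the gene was Rps4l (adjusted p = 0.0479), with Rpl27a at 0.0549. Array weights also gave 10 in untreated ElkSapKO, 1 in untreated ElkKO, 1 in the ElkSapKO response and 1 in the mean response, the last 3 all the near-background Rpl3l. Leaving out each array in turn gave 0 to 6 calls in stimulated ElkSapKO, 0 to 2 in untreated ElkSapKO, 0 to 1 in untreated ElkKO and 0 to 1 in the mean response; the 6 came without untreated ElkSapKO mouse 2. These counts stand without the share of all genes called in each setting, so they are no result about the members alone. The cause of these changes was not tested, and the fit with the Actb covariate cannot tell RNA integrity from genotype. With a mouse as a random replicate block (consensus correlation 0.218) the count stayed 1, again Rpl27a (adjusted p = 0.0227), and as a fixed block the responses gave 0, so the pairing changed no call. No alternative reversed a called value. Limma's shared prior widened the SD of bright members to a median of 0.114 log2, against a residual median of 0.065 log2, and signal near the top of the scale limits what changes they can show.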
